A study of Mus musculus with 6 samples.

Results

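The genes described here encode the 2 families of kinases that phosphorylate serine/arginine-rich (SR) splicing factors, the SR protein kinases *Srpk1* and *Srpk2* and the CDC-like kinases *Clk1*, *Clk2*, *Clk3* and *Clk4*. They were chosen by name, as members of these families, and make up 6 of the 54532 genes of the deposited table. All 6 were among the 17180 genes with a mean of at least 0.5 FPKM (fragments per kilobase of gene, scaled to library size) over the 6 libraries. Each of the 6 libraries, 3 Ctrl and 3 cKO, was made from whole C57BL/6 ovary at 16.5 dpc (days post-coitus). Ctrl mice are wild type by their labels. The cKO mice carry *Stra8-GFPCre*, which expresses Cre from a *Stra8* construct in germ cells, and floxed *Srsf1* (Fl/Fl), from which Cre removes exons 2, 3 and 4. By design, the somatic cells of the ovary keep *Srsf1*. The study's methods call the 3 libraries of a group biological replicates. Whether each holds 1 animal or a pool is not stated in the sources used here.

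Serine/arginine-rich splicing factors such as SRSF1 bind pre-mRNA and recruit the splicing machinery, and their activity and place in the cell follow the phosphorylation of their tail of alternating arginines and serines, the RS domain. SRPK1 and SRPK2 sit mainly in the cytoplasm and phosphorylate this tail so that the importin transportin-3 carries the protein into the nucleus. CLK1 to CLK4 are nuclear kinases that also phosphorylate tyrosine, add further phosphate groups to the tail and release SR proteins from nuclear speckles. Clk transcripts are themselves known targets of regulated splicing, and part of them is kept in the nucleus with introns still in place. The SRPK and CLK kinases thus act on the protein whose gene was deleted in the germ cells of the cKO ovaries, and the comparison of the groups asks whether their own RNA levels differed there.

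The CLK kinases are also called LAMMER kinases, after a motif of 6 residues in the kinase domain, of which *Clk3* carries a variant. The codons of this motif are shown because they were found, in strict or relaxed form, in the Clk genes and not in the Srpk genes. The longest coding transcript of each gene means here the transcript with the most coding bases in GENCODE M21 (genome build GRCm38). It was searched in frame for codons of the motif. Capitals mark the 18 bases of the 6 codons, and 6 bases on each side are in lower case, all written 5′ to 3′ on the strand of the gene.
Clk1: gaacatTTAGCAATGATGGAAAGGattctt
Clk2: gagcatCTAGCCATGATGGAAAGGatcctg
Clk4: gagcacCTGGCAATGATGGAGCGGatctta
Clk3: gaacacTTGGTTATGATGGAGAAGattcta
The windows lie at chr1:58412982-58413011 (minus strand) in *Clk1*, chr3:89175407-89175436 (plus strand) in *Clk2*, chr11:51280373-51280402 (plus strand) in *Clk4* and chr9:57752150-57752179 (minus strand) in *Clk3*. Each falls in exon 11 of its transcript, within 1 exon and in the coding sequence. The *Clk3* window was found only when the second and the last codon were left free. No such window was found in *Srpk1* or *Srpk2*. Of the 18 codon bases, *Clk1* and *Clk2* shared 16, *Clk1* and *Clk4* shared 14, as did *Clk2* and *Clk4*, and *Clk3* shared 12 with *Clk2* and 13 each with *Clk1* and *Clk4*.

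*Clk1* and *Clk4* also shared the longest identical stretch of any pair among the 6 coding transcripts. It is printed because identical sequence is where a count could be split between paralogs.
Clk1 and Clk4: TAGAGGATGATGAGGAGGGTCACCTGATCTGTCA
All 34 capitals are identical bases of coding sequence in exon 4 of both genes, at chr1:58420147-58420180 (minus strand) and chr11:51273109-51273142 (plus strand) of GRCm38. The other 14 pairs shared at most between 11 and 18 bases in a row. No stretch of 150 bases, the length of a sequenced read, was shared between the annotated transcripts of *Srpk1*, *Clk1*, *Clk2* or *Clk4* and those of any other gene. For *Srpk2*, 5.76% of such stretches were shared with other genes, and for *Clk3* it was 11.7%. Their main partners on the opposite strand were *Kmt2e*, which shares 972 exonic bases with *Srpk2*, and *Edc3*, which shares 1284 with *Clk3*. The printed *Clk3* window lies entirely within exons of *Edc3*. The sources used here do not state the strand setting of the counting, so reads in these shared exons could not be assigned with certainty. The level of *Edc3* was between 10.5 and 11.9 FPKM and that of *Kmt2e* between 10.2 and 12.9 FPKM in the 6 libraries.

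The reads on genes numbered between 15548757 and 16756795 in Ctrl and between 14212164 and 16784241 in cKO. Multiplied by gene length, the FPKM values gave whole reads within 0.05 of a read, and each kinase gene had between 1195 and 5818 reads per library. The counting error (Poisson, coefficient of variation) was thus between 1.39% and 2.71%, below the observed spread of 3.19% to 18.2% over the 6 libraries. The targeted gene *Srsf1* ranged from 63.1 to 80.2 FPKM in Ctrl and from 32.4 to 37.0 FPKM in cKO, without overlap. Summed over 10 germ-cell markers, the level ranged from 106 to 390 FPKM in Ctrl and from 190 to 599 FPKM in cKO. Of these markers, *Dazl* ran from 23.0 to 80.0 FPKM in Ctrl and from 56.8 to 219 FPKM in cKO. In the limma fit described below, 8 of the 10 had log2 fold changes above 0 and 2 below. Only *Dazl* passed an unadjusted p below 0.05, and 9 did not. The study also reports a changed skipped exon in *Dazl*. All 10 markers were tested, and none was at 0 in every library. The extraction text of the labels names retina and their tissue field ovary. The 8 pregranulosa markers summed to between 279 and 400 FPKM, and the 8 retina markers to between 0.138 and 0.565 FPKM, with each of these below the minimum.

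None of the 6 kinase genes passed the limit in the comparison of cKO with Ctrl, and their fitted fold changes lay between a log2 value of -0.16 and 0.07. The test was limma on log2(FPKM + 1), two-sided, with the study's limit of an unadjusted p below 0.05. The study applied that limit to DESeq2 rather than limma, so its calls can differ from these. Over all genes tested, 4.43% passed that limit, 2.68% higher and 1.75% lower in cKO, and 8.68% had groups that did not overlap. Among the kinase genes, 0 of 6 passed and 0 of 6 had groups that did not overlap. With limma, 0 genes passed a Benjamini-Hochberg adjusted p below 0.05, against 761 at the unadjusted limit. The median absolute log2 fold change was 0.05 over the kinase genes and 0.13 over all genes tested. The latter include genes down to a mean of 0.5 FPKM, and no set of genes matched in level was compared. Each gene was also compared by an exact permutation test, two-sided, which cannot go below 0.1 with 3 libraries against 3. A p above the limit does not show equal levels. The 95% intervals of the 6 genes together reached from a fold of 0.672 to one of 1.32 on the FPKM + 1 scale. In whole ovary, a change in germ cells would be diluted by the other cells, and fewer cells of a type cannot be told apart from less RNA per cell.

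**Figure D1:**
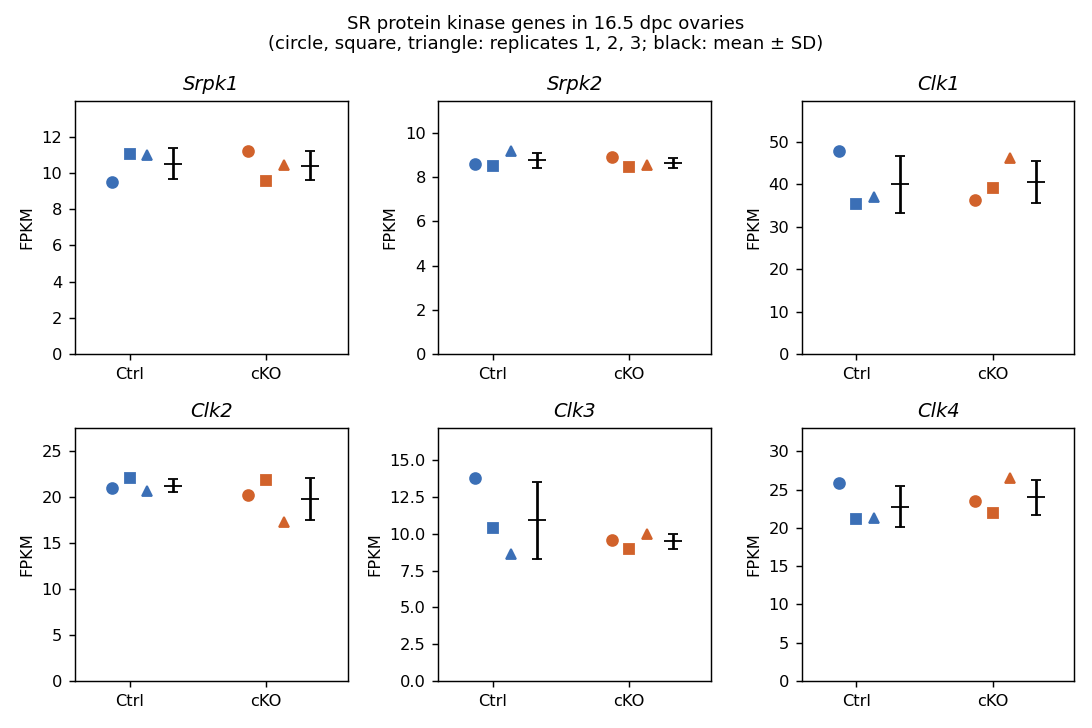
FPKM of the 6 kinase genes by group, with circles, squares and triangles for replicates 1, 2 and 3 and the mean ± SD (n = 3) in black. The Ctrl and cKO points overlap for every gene, and Ctrl 1 stands above the others for *Clk3*.

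*Srpk1*, a cytoplasmic kinase of the N-terminal part of the SRSF1 tail, is ENSMUSG00000004865, on the minus strand of chromosome 17 (28587648 to 28622709, GRCm38). Its level was 9.53, 11.0 and 11.0 FPKM in Ctrl 1, 2 and 3, against 11.2, 9.57 and 10.5 FPKM in cKO 1, 2 and 3. The lowest libraries were Ctrl 1 and cKO 2, and the groups overlapped almost fully. Ctrl averaged 10.5 ± 0.86 FPKM and cKO 10.4 ± 0.81 FPKM (SD, n = 3 each). The log2 fold change was -0.01 (SE 0.12, 95% interval -0.30 to 0.27, limma p = 0.915, adjusted p = 0.995, exact permutation p = 1.0).

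*Srpk2*, the paralog best known from brain, is ENSMUSG00000062604, on the minus strand of chromosome 5 (23503264 to 23684617). It was at 8.61, 8.51 and 9.15 FPKM in Ctrl 1, 2 and 3 and at 8.91, 8.45 and 8.53 FPKM in cKO 1, 2 and 3. It varied least of the 6 genes, with a highest library 1.08 times the lowest. The Ctrl mean of 8.76 ± 0.35 FPKM and the cKO mean of 8.63 ± 0.25 FPKM (SD, n = 3 each) gave a log2 fold change of -0.02 (SE 0.11, 95% interval -0.27 to 0.23, limma p = 0.868, adjusted p = 0.995, exact permutation p = 0.6). The ratio of *Srpk1* to *Srpk2* in FPKM was between 1.11 and 1.30 in the 6 libraries, and its mean was 1.201 in Ctrl (SD 0.09, n = 3) and 1.204 in cKO (SD 0.06, n = 3). The third gene of the family, *Srpk3*, a muscle kinase outside the rule for naming genes and named after its values were seen, had between 6 and 23 reads per library and stayed below the minimum.

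*Clk1*, whose RNA is regulated by splicing of its exon 4 and by retained introns in many cell types, is ENSMUSG00000026034, on the minus strand of chromosome 1 (58410189 to 58424066). It was at 47.7, 35.4 and 37.0 FPKM in Ctrl 1, 2 and 3 and at 36.4, 39.0 and 46.1 FPKM in cKO 1, 2 and 3. One library of each group, Ctrl 1 and cKO 3, was high, and the other 4 lay between 35.4 and 39.0 FPKM. Means were 40.02 ± 6.70 FPKM for Ctrl and 40.5 ± 5.005 FPKM for cKO (SD, n = 3 each). The log2 fold change was 0.02 (SE 0.16, 95% interval -0.36 to 0.40, limma p = 0.896, adjusted p = 0.995, exact permutation p = 0.9).

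*Clk4*, the closest relative of *Clk1*, is ENSMUSG00000020385, on the plus strand of chromosome 11 (51261730 to 51281766). Its level was 25.9, 21.2 and 21.2 FPKM in Ctrl 1, 2 and 3, against 23.6, 22.0 and 26.5 FPKM in cKO 1, 2 and 3. Ctrl 1 and cKO 3 were again the highest libraries of their groups, and the groups overlapped. Means of 22.8 ± 2.71 FPKM for Ctrl and 24.02 ± 2.29 FPKM for cKO (SD, n = 3 each) gave a log2 fold change of 0.07 (SE 0.13, 95% interval -0.24 to 0.39, limma p = 0.595, adjusted p = 0.986, exact permutation p = 0.5). *BC049762*, on the opposite strand, overlaps the extent of *Clk4* by 1317 bases but shares 0 exonic bases with it. It was named for this overlap and ran from 1.96 to 6.08 FPKM in Ctrl and from 5.55 to 12.5 FPKM in cKO.

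*Clk2*, a kinase also known to act in insulin signalling in liver, is ENSMUSG00000068917, on the plus strand of chromosome 3 (89164795 to 89176921). It was at 21.0, 22.0 and 20.6 FPKM in Ctrl 1, 2 and 3 and at 20.2, 21.8 and 17.3 FPKM in cKO 1, 2 and 3. The lowest library was cKO 3, one of the 2 in which *Clk1* and *Clk4* were high. From a mean of 21.2 ± 0.71 FPKM for Ctrl and of 19.8 ± 2.28 FPKM for cKO (SD, n = 3 each), the fit gave a log2 fold change of -0.10 (SE 0.12, 95% interval -0.39 to 0.19, limma p = 0.432, adjusted p = 0.982, exact permutation p = 0.4). Without cKO 3 the log2 fold change was -0.01.

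*Clk3*, which is abundant in testis and mature sperm, is ENSMUSG00000032316, on the minus strand of chromosome 9 (57750624 to 57765860). It was at 13.8, 10.4 and 8.60 FPKM in Ctrl 1, 2 and 3 and at 9.61, 8.95 and 9.96 FPKM in cKO 1, 2 and 3. The Ctrl libraries held both its highest and its lowest value, and the cKO values lay between them. Its Ctrl mean was 10.9 ± 2.63 FPKM and its cKO mean 9.51 ± 0.51 FPKM (SD, n = 3 each). Its log2 fold change of -0.16 was the farthest from 0 of the 6 genes (SE 0.17, 95% interval -0.57 to 0.25, limma p = 0.389, adjusted p = 0.979, exact permutation p = 0.5). Without Ctrl 1 it was 0.01.

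**Figure D2:**
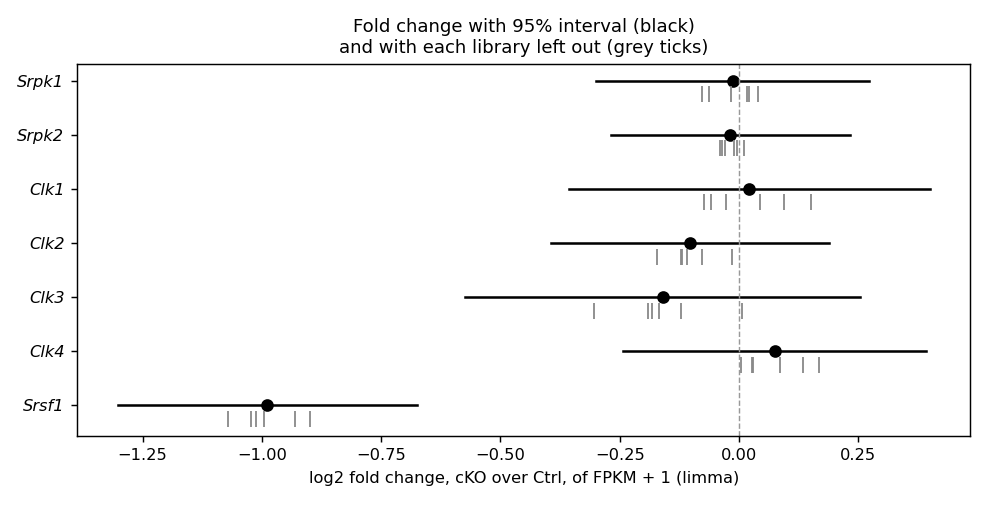
Log2 fold change of cKO over Ctrl on the FPKM + 1 scale for the 6 kinase genes and *Srsf1*, with the 95% interval of limma as a black line and the value with each library left out as grey ticks. All 6 kinase intervals include 0, whereas that of *Srsf1* runs from -1.30 to -0.67.

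By deposited FPKM, the genes ranked *Clk1* (mean over the 6 libraries 40.3), *Clk4* (23.4), *Clk2* (20.5), *Srpk1* (10.5), *Clk3* (10.2) and *Srpk2* (8.70). Neighbours in this order were compared within each library by an exact paired permutation test (sign flips of the log2(FPKM + 1) difference, two-sided, smallest p 0.031), with Benjamini-Hochberg adjustment over the 5 pairs. *Clk1* lay above *Clk4* by 0.75 on the log2(FPKM + 1) scale in 6 of 6 libraries (exact p = 0.031, adjusted p = 0.0781). *Clk2* lay above *Srpk1* by 0.91 in 6 of 6 libraries, with the same p-values from the exact test. Both are the smallest p that 6 libraries allow, and neither is below 0.05 once adjusted. For the other 3 pairs, *Clk4* over *Clk2* (0.18 on the log2(FPKM + 1) scale), *Srpk1* over *Clk3* (0.04) and *Clk3* over *Srpk2* (0.20), the order held in 5 of 6 libraries, and the exact p was 0.125, 0.75 and 0.0938. As deposited FPKM, these neighbours did not differ beyond their spread, which does not hold for every length scale.

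The order depended on the length by which the reads were divided. The deposited lengths are those of all merged exons of a gene, retained introns included, and exceeded the longest coding transcript by 2.14 times in *Srpk2* to 4.53 times in *Clk1*. The annotation lists 13 transcripts of *Clk1*, of which 1 is protein coding, 7 are retained introns and 2 are subject to nonsense-mediated decay. It lists 14 of *Clk4*, with 4 protein coding and 7 retained introns. Divided by the length of the longest coding transcript in place of the merged exons, a scale chosen after the data were seen, *Clk1* was at 183 units (reads per kilobase, scaled to library size), *Clk4* at 69.8, *Clk2* at 51.6, *Clk3* at 34.6, *Srpk1* at 28.0 and *Srpk2* at 18.7. On this scale the 4 Clk genes stood above both Srpk genes by their means. Scaled to library size but not divided by length, the values were 328 for *Clk1*, 136 for *Clk4*, 130 for *Srpk1*, 121 for *Srpk2*, 109 for *Clk2* and 86.4 for *Clk3*, which is not a comparison of levels between genes of unlike length. By the means over the 6 libraries, *Clk1* was first and *Clk4* second on all 3 scales. The second place was not held in every library. Ranges of *Clk4* and *Clk2* overlapped as FPKM (21.2 to 26.5 against 17.3 to 22.0). Those of *Clk4* and *Srpk1* overlapped without division by length (127 to 153 against 114 to 142). Values per gene do not show which transcripts the reads came from, and the share of transcripts with a retained intron was not analysed here.

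**Figure D3:**
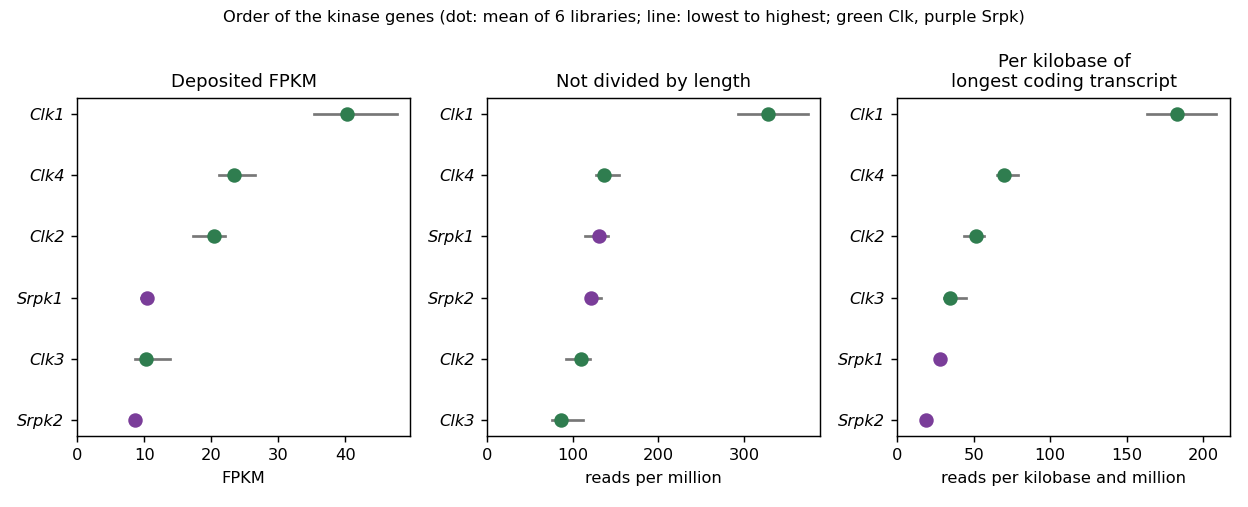
Mean (dot) and range (line) over the 6 libraries of each kinase gene as deposited FPKM, as reads scaled to library size and not divided by length, and as such reads per kilobase of the longest coding transcript, with Clk genes in green and Srpk genes in purple. *Clk1* leads on each axis, while the place of *Clk3* changes with the scale.

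Added over the families, the 4 Clk genes reached 94.9 ± 11.7 FPKM in Ctrl and 93.8 ± 5.32 FPKM in cKO (SD, n = 3 each). The 2 Srpk genes reached 19.3 ± 1.03 FPKM and 19.0 ± 1.04 FPKM (SD, n = 3 each). The ratio of the family sums was highest in Ctrl 1, at 5.98, and lowest in Ctrl 3, at 4.35, with the cKO libraries between 4.46 and 5.26. *Clk1* made up between 39.8% and 46.1% of the summed Clk level, *Clk4* between 23.8% and 26.5%, *Clk2* between 17.3% and 24.7% and *Clk3* between 9.75% and 12.7%. The differences between groups were smaller than the spread between libraries for each of these sums and for the ratio.

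Within the Clk family, *Clk1* and *Clk4* had the most similar profile across the libraries. The ratio of their FPKM values was 1.84, 1.67 and 1.74 in Ctrl 1, 2 and 3, against 1.54, 1.77 and 1.74 in cKO 1, 2 and 3. It averaged 1.75 ± 0.09 for Ctrl and 1.69 ± 0.12 for cKO (SD, n = 3 each), and its highest and lowest values lay in Ctrl 1 and cKO 1. Likeness to other genes was measured as the root mean square difference of log2(FPKM + 1), each gene centred on its mean over the 6 libraries. By this measure, *Clk4* was 119th of 14879 genes with a mean of at least 1 FPKM in likeness to *Clk1*, with a difference of 0.08. In likeness to *Clk4*, *Clk1* was 281st. *Clk2* and *Clk3* differed from *Clk1* by 0.24 and 0.16, ranks 6376 and 1841. *Srpk1* and *Srpk2* differed from each other by 0.07, where flat profiles of any 2 genes lie close together. *Srpk2* was 232nd in likeness to *Srpk1*, and *Srpk1* was 436th in likeness to *Srpk2*. The 2 genes most alike to each member were *Atp11a* and *Krr1* for *Srpk1*, *Rcan2* and *Gpr137b-ps* for *Srpk2*, *Gm6104* and *Med19* for *Clk1*, *Hif1an* and *Surf6* for *Clk2*, *Elf1* and *Camsap2* for *Clk3*, and *Casd1* and *Ppp2r5c* for *Clk4*. The differences for these genes were between 0.02 and 0.04, over 6 libraries that share their cell makeup and depth with all genes.

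**Figure D4:**
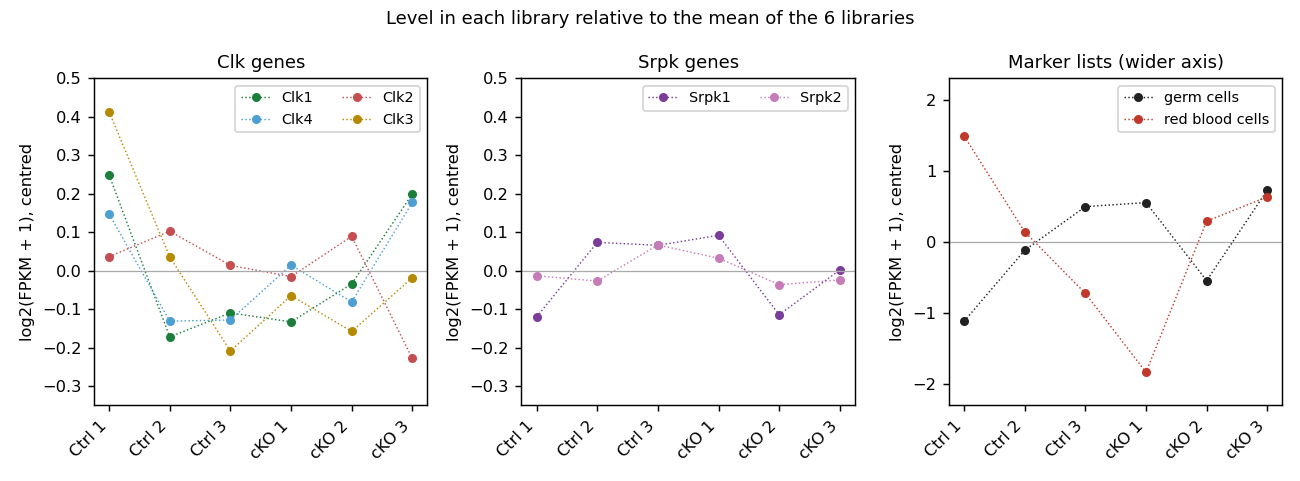
Log2(FPKM + 1) of the 4 Clk genes, the 2 Srpk genes and the mean of the germ-cell and red-blood-cell marker lists in each library, centred on the mean of the 6 libraries, with dotted lines that only link the points of one gene or list. *Clk1* and *Clk4* are highest in Ctrl 1 and cKO 3, *Clk2* is lowest in cKO 3, and the lists span a range several times wider than any kinase gene.

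The levels of cell-type markers differed between libraries of one group. The 8 red-blood-cell markers summed to 23315, 7934 and 4897 FPKM in Ctrl 1, 2 and 3 and to 1702, 10469 and 9958 FPKM in cKO 1, 2 and 3. Ctrl 1, the highest library for *Clk1* and *Clk3*, was thus highest in red-blood-cell and lowest in germ-cell markers, and cKO 3, the highest for *Clk4*, was highest in germ-cell markers. The part of red blood cells in the kinase levels was not tested. With the germ-cell list as a covariate, 0 of 6 kinase genes passed the limit, and the log2 fold change was -0.07 for *Srpk1* and *Clk3*, -0.04 for *Srpk2*, -0.06 for *Clk2*, 0.07 for *Clk1* and 0.09 for *Clk4*. Of the 10 genes in this list, 8 had log2 fold changes above 0 in cKO, and *Dazl* passed the limit. The covariate can therefore take up part of a group difference, here and for the genes below. Against the mean level of the germ-cell list over the 6 libraries, none of 6 relations passed an exact permutation test of Pearson's r or Spearman's rho, two-sided. The largest r was 0.785 for *Srpk1* (exact p = 0.136, adjusted over the 6 genes 0.383, rho = 0.60 with p = 0.242). Without Ctrl 1 and cKO 2, the 2 libraries farthest from the median of the list, r turned to -0.475, so it rested on those libraries. For *Clk2*, r was -0.616 (exact p = 0.0972, adjusted 0.383) and rho was -0.77 (p = 0.103), and r was -0.820 without these 2 libraries. For *Clk3*, r was -0.662 (exact p = 0.192), and for *Srpk2*, *Clk1* and *Clk4* it was 0.479, -0.339 and -0.063, with exact p-values of 0.361 to 0.922. Groups of 3 are too small for values within a group.

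The genes around these kinases were read from 5 lists, again at the unadjusted limma limit that 4.43% of all genes passed. Groups that did not overlap were seen in 8.68% of all genes tested. In the lists they were seen in 1 of 7 phosphatases, 1 of 8 partners and 2 of 20 RS-domain genes. The other kinases (0 of 6) and the DYRK and HIPK relatives (0 of 7) had none. Among the other kinases reported to act on SR proteins, 0 of 6 tested passed. The smallest p there belonged to *Cdk11b*, a cyclin-dependent kinase tied to splicing, at 37.6 ± 9.91 FPKM in Ctrl and 51.2 ± 10.5 FPKM in cKO (SD, n = 3; log2 fold change 0.45, limma p = 0.0922, exact permutation p = 0.2). Its log2 fold change was 0.64 without Ctrl 3 (the limma p was then 0.0247), 0.27 without Ctrl 1 (0.272), 0.30 without cKO 1 (0.266) and 0.26 with the germ-cell list as a covariate (0.132). Among the phosphatases that remove the phosphate groups, 0 of 7 passed. *Ppp1r8*, a nuclear regulator of protein phosphatase 1, had the smallest p, at 21.1 to 22.7 FPKM in Ctrl and 24.97 to 26.6 FPKM in cKO, groups that did not overlap (log2 fold change 0.21, limma p = 0.0809, exact permutation p = 0.1). Its limma p was 0.0432 with no minimum FPKM and between 0.0544 and 0.211 under the other alternatives.

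Among chaperones, scaffolds and the importin that work with the kinases, 1 of 8 passed. This was *Dnajc8*, a J-domain protein that binds SRPK1, which was at 54.9, 43.9 and 42.6 FPKM in Ctrl 1, 2 and 3 and at 36.9, 39.2 and 33.2 FPKM in cKO 1, 2 and 3. The cKO libraries lay below all Ctrl libraries, and the log2 fold change was -0.36 (SE 0.14, limma p = 0.0395, adjusted p = 0.978, exact permutation p = 0.1). Its limma p was 0.0518 with the germ-cell list as a covariate (log2 fold change -0.26), 0.130 without Ctrl 1 (-0.24) and 0.109 without cKO 3 (-0.29). It was 0.0636 without Ctrl 2 (-0.40) and 0.0809 without cKO 1 (-0.37), where the fold was no smaller. Among 20 proteins with RS domains, the substrates of the kinases, 1 was higher and 1 was lower in cKO. The lower one was *Srsf1* itself (log2 fold change -0.99, SE 0.13, limma p = 0.000158, adjusted p = 0.497, exact permutation p = 0.1). The higher one was *Srsf9*, the SR protein most similar to SRSF1, at 45.8, 47.6 and 55.0 FPKM in Ctrl 1, 2 and 3 and at 54.3, 66.9 and 77.5 FPKM in cKO 1, 2 and 3. Its groups overlapped, since cKO 1 lay below Ctrl 3, and the log2 fold change was 0.40 (SE 0.16, limma p = 0.0414, adjusted p = 0.978, exact permutation p = 0.2). Its limma p was 0.0668 after quantile normalization, 0.0562 under voom and 0.0767 with the germ-cell covariate, at log2 fold changes of 0.38, 0.39 and 0.36. It was between 0.0792 and 0.118 without Ctrl 1, Ctrl 2, cKO 2 or cKO 3, at log2 fold changes of 0.35, 0.38, 0.39 and 0.29.

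The DYRK and HIPK kinases, relatives of the CLK kinases, had 0 of 7 genes past the limit. All 7 fitted log2 fold changes were below 0, with a median of -0.19, against a median of -0.01 over all genes tested. The 5 immune-cell markers tested were also all below 0 (median -0.29), as were the 3 mesonephros markers (median -0.33), and no list was tested for a shared direction. The smallest p was that of *Dyrk3*, a kinase that dissolves nuclear speckles, at 5.56, 2.84 and 1.91 FPKM in Ctrl 1, 2 and 3, against 1.00, 1.80 and 2.70 FPKM in cKO 1, 2 and 3 (log2 fold change -0.61, limma p = 0.127, exact permutation p = 0.2). Its log2 fold change was -0.87 without Ctrl 3 (the limma p was then 0.0443), -0.28 without Ctrl 1 (0.379), -0.38 without cKO 1 (0.342) and -0.41 with the germ-cell covariate (0.261). *Dyrk3* was highest in Ctrl 1 and lowest in cKO 1, as were the red-blood-cell sums, but the libraries between did not keep that order. In cKO 2 its level was below those of Ctrl 2 and Ctrl 3, although the red-blood-cell sum was higher there. The part of red blood cells was not tested.

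**Figure D5:**
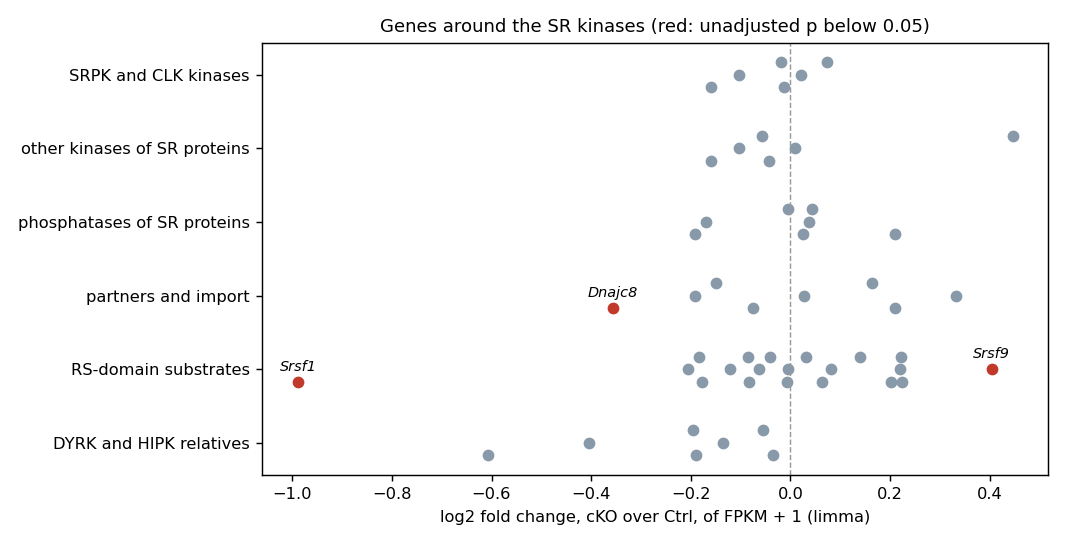
Log2 fold change of cKO over Ctrl on the FPKM + 1 scale for each tested gene of the SRPK and CLK kinases and of the 5 lists around them, with genes at an unadjusted limma p below 0.05 in red. The kinase genes lie between -0.16 and 0.07, and the 3 red points are *Srsf1*, *Dnajc8* and *Srsf9*.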

How the data were processed

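The authors selected poly-A RNA, aligned paired-end reads to GRCm38 (mm10) with HISAT2 2.0.5, assigned them to genes with featureCounts and deposited the result as FPKM values. Neither the annotation release nor the strand setting is given in the sources used here. Groups and replicate numbers came from the labels. The test was limma 3.58.1 (R 4.3.3) of log2(FPKM + 1), with an intensity trend and group as the only term. Whole reads were recovered from FPKM and gene length. The library size implied by the FPKM values was between 0.965 (Ctrl 1) and 1.04 (Ctrl 3) times the reads on genes. How that size was set is not stated in the sources used here. The factors of the median-ratio scaling were between 0.993 (cKO 3) and 1.01 (Ctrl 3), so this alternative changed the values little. A fold on this scale understates changes of low genes. Sequences and exons came from GENCODE M21, whose merged exon lengths equal the deposited lengths of the 6 kinase genes. Tables and figures were made in Python 3.11.15 (pandas 2.3.3, numpy 2.4.6, matplotlib 3.10.9, scipy 1.17.1). The fit was tested on simulated data.

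The kinase genes, the lists and the tests were chosen with earlier results of these data known. The text names all kinase genes, *Srsf1* and listed genes past the unadjusted limit or, in a list with none, the gene of smallest p. It also names the 2 genes most alike to each kinase gene and the protein-coding genes that overlap one. The markers *Dazl* and *Hbb-y* were named after their values were seen. Further marker lists (pregranulosa cells, stroma, immune cells, endothelium, mesonephros) had 0 genes past the limit. Of the red-blood-cell list, 1 gene was higher, *Hbb-y*, while the other 7 had log2 fold changes below 0 and did not pass. Of the germ-cell list, 1 gene was higher, *Dazl*. The alternatives were 2 pseudocounts, 2 minimum levels, 2 scalings, voom, no trend, the replicate block, the germ-cell covariate, other length scales and each library left out in turn.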

Additional observations from a re-analysis of the deposited data

How the results depend on the processing

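None of the kinase genes passed the limma limit under any of the 16 alternatives. When any 1 library was left out, log2 fold changes ranged from -0.077 to 0.040 for *Srpk1*, -0.039 to 0.011 for *Srpk2*, -0.073 to 0.15 for *Clk1*, -0.17 to -0.014 for *Clk2*, -0.30 to 0.0063 for *Clk3* and 0.0041 to 0.17 for *Clk4*. The sign of *Srpk1*, *Srpk2*, *Clk1* and *Clk3* thus changed in some of these, and in none of the other alternatives. Deviations from the group means correlated at -0.389, -0.030 and 0.117 between libraries of the same replicate number. Between libraries of unlike number the correlations ran from -0.343 to 0.350. With 3 libraries in each group, such values cannot show whether the numbers pair the libraries. With the replicate number as a block, the limma p of *Dnajc8* was 0.0583 (log2 fold change -0.36), and no call of the kinase genes or of *Srsf1*, *Srsf9*, *Cdk11b*, *Ppp1r8* or *Dyrk3* changed.

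Over all genes, 736 were higher and 595 lower with no minimum FPKM, and 536 were lower with the germ-cell covariate. With each library left out, the counts ran from 202 to 1461 higher (without Ctrl 2 and cKO 2) and from 163 to 1039 lower (without Ctrl 2 and cKO 2). The count at an adjusted p below 0.05 ran from 0 to 4, the latter without Ctrl 1. Genes of the lists past the limit numbered 1 with the covariate and 1 to 8 with a library left out.

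Between neighbours in level, on reads scaled only to library size, the log2 difference was 0.32 for *Clk4* over *Clk2*, -0.25 for *Clk2* over *Srpk1*, 0.59 for *Srpk1* over *Clk3* and -0.50 for *Clk3* over *Srpk2*. Per kilobase of the longest coding transcript it was 0.43 for *Clk4* over *Clk2*, -0.29 for *Srpk1* over *Clk3* and 0.84 for *Clk3* over *Srpk2*. These follow from the lengths used. With a library left out, *Srpk1* over *Clk3* ran from -0.011 to 0.15. Without Ctrl 1 and cKO 2, r with the germ-cell list was -0.475 for *Srpk1*, 0.672 for *Clk1* and 0.723 for *Clk4*, and the cause was not tested.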
